A study of Mus musculus with 8 samples.

Results

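Cell cycle and proliferation genes were examined in the thoracic aorta of mice without Fto. The set held 34 genes chosen by name, with earlier results of these data known, of 21368 named genes on the array. Of these, 13 act in DNA replication and entry into it (Mcm2, Mcm3, Mcm4, Mcm5, Mcm6, Mcm7, Pcna, Tyms, Rrm1, Rrm2, Ccne1, Ccne2 and E2f1), called replication genes here. The other 21 act mainly in G2 and mitosis (Mki67, Top2a, Ccna2, Ccnb1, Ccnb2, Cdk1, Cdc20, Plk1, Aurka, Aurkb, Bub1, Bub1b, Birc5, Kif11, Kif20a, Cenpa, Cenpe, Tpx2, Psrc1, Nusap1 and Cdca8), called mitosis genes here. Each gene was found through the RefSeq transcript of its probes, and its probe of highest mean signal stood for it.

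The study compared 4 Fto -/- with 4 Fto +/+ thoracic aortae, all from mice of a C57BL6J/NMRI background labelled male, on 1 single-dye expression array per sample. The Fto enzyme is an RNA demethylase that acts on N6-methyladenosine. The age of the mice and the construction of the Fto allele are not given in the sources used here, and whether samples and animals match 1 to 1 is not stated, so the error behind each p-value is that between samples, which may be technical. The free-text descriptions name the opposite genotype of the titles and genotype fields. Groups follow the titles, and so did the Fto probe, at -2.53, -2.19, -2.56 and -2.77 on Fto -/- arrays and 0.60, 0.85, 0.47 and 0.35 on Fto +/+ arrays (log2 relative to the 75th percentile of signal on the array). Where that probe lies relative to the deleted part of Fto is not given. The genotypes had a log2 difference (Fto -/- minus Fto +/+) of -3.08 and p = 0.0286 by exact permutation (two-sided), which is the smallest that 4 against 4 samples can give. Although the mice were labelled male, the Xist probe was well above background on all 8 arrays and those of 4 Y-linked genes (Zfy1, Eif2s3y, Kdm5d and Ddx3y) on 0, with a Uty probe read so on Fto +/+ replicate 3.

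A cell that divides first licenses and copies its DNA and then condenses, aligns and separates the copied chromosomes. Cyclin E with its kinase and the E2F factors switch on the genes of replication, among them the Mcm helicase subunits, the sliding clamp and the enzymes that make nucleotides. Later the B-Myb and DREAM complexes and FoxM1 govern a second wave of genes, whose products include the mitotic cyclins, the Polo and Aurora kinases, the spindle checkpoint and the kinesins. In the adult aorta most smooth muscle and endothelial cells rest outside the cycle, while dividing lymphoid precursors express both waves strongly.

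All values below are log2 levels relative to the 75th percentile of signal on the same array, so 0 means a signal equal to that percentile. The 75th percentile ran from 294.9 to 415.6 intensity units, and 44.5% to 47.7% of probes were well above background. Probes entered the test when 4 or more of the 8 arrays, of either genotype, read them well above background. In limma with Benjamini-Hochberg adjustment over the 25292 tested probes and a threshold of 0.05, 213 probes were higher and 206 lower in Fto -/- aortae. The split was 273 and 155 when the percentile was taken over probes that all 8 arrays read well above background. The smooth muscle markers Acta2 and Myh11 were well above background on every array, as were the other 6 of 8 markers of that cell type.

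Libraries stood apart within each genotype before any comparison of cell cycle genes. Rag1, the recombinase of developing lymphocytes, was well above background on Fto -/- replicates 1, 3 and 4 and on Fto +/+ replicate 2. Its level was -1.76, -5.62, -1.08 and -2.14 in Fto -/- replicates 1 to 4, and -5.62, -1.24, -5.52 and -5.37 in Fto +/+ replicates 1 to 4. The same 4 arrays had 13 of the 14 T cell markers well above background, against 9 on Fto -/- replicate 2 and 6 on each of the other 3 Fto +/+ arrays, and Cd247 was not above it on any array. Thymocyte markers well above background numbered 4, 1, 6 and 3 of 7 on the Fto -/- arrays and 1, 4, 0 and 1 of 7 on the Fto +/+ arrays. In such bulk tissue, fewer cells of a type and less RNA per cell cannot be told apart.

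Of the 34 cell cycle genes, 26 were tested, 2 were higher in Fto -/- aortae (limma with Benjamini-Hochberg adjustment), 0 were lower and 24 did not pass. Of all tested probes 1.66% passed, 0.842% higher and 0.814% lower. The 2 genes were Ccne1, which encodes the cyclin E1 that drives entry into DNA synthesis, and Psrc1, which encodes a spindle microtubule protein. Psrc1 entered the test through its Fto -/- arrays alone, and with no filter both genes missed the threshold (adjusted p 0.0789 for Ccne1 and 0.119 for Psrc1). At an unadjusted p under 0.05, 11 of the 26 were higher and 0 lower, where 8.72% of all tested probes were higher and 10.3% lower. The median log2 difference was 0.15 over the 12 tested replication genes and 0.67 over the 14 tested mitosis genes, beside -0.02 over all tested probes. In further genes outside the set, the median was 0.18 over 21 tested replication genes and 0.15 over 23 tested mitosis genes. The difference lay above 0 in 8 of the 12 replication genes and in 13 of the 14 mitosis genes, and in 47.5% of all tested probes. Because the genes were chosen with earlier results of these data known, these counts beside the shares of all probes are not a test of the set.

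**Figure D1:**
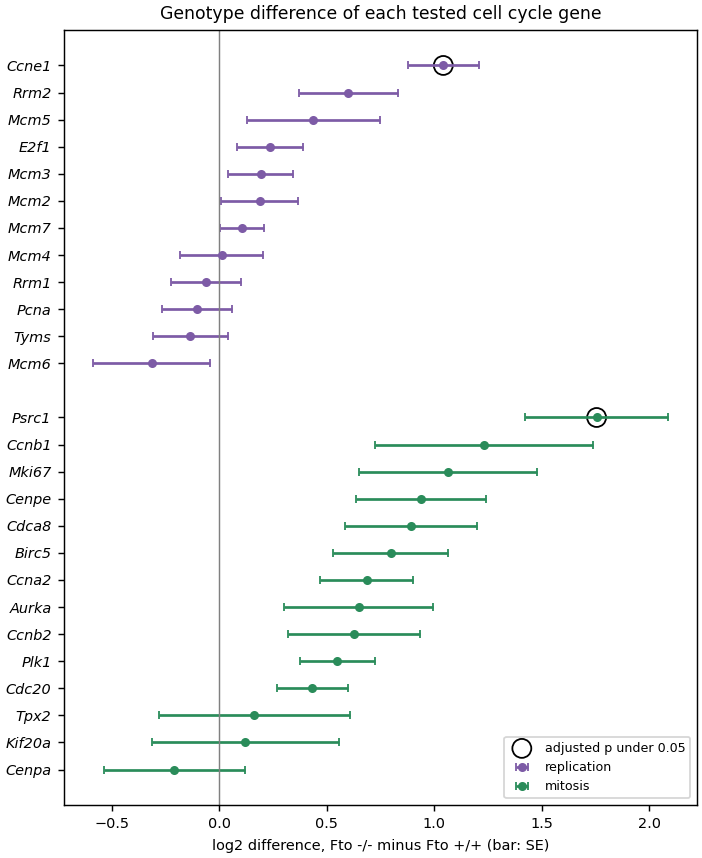
Log2 difference (Fto -/- minus Fto +/+, horizontal axis) with its standard error for each tested cell cycle gene, replication genes above and mitosis genes below; a ring marks an adjusted p under 0.05. Replication genes run from -0.31 (Mcm6) to 1.04 (Ccne1) and mitosis genes from -0.21 (Cenpa) to 1.75 (Psrc1), with rings on Ccne1 and Psrc1 alone.

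The 8 genes that were not tested were Ccne2 of the replication genes and Top2a, Cdk1, Aurkb, Bub1, Bub1b, Kif11 and Nusap1 of the mitosis genes. Of these, 6 were not well above background on any array. Top2a, which encodes the topoisomerase that untangles chromosomes before they separate, was well above background only on Fto +/+ replicate 1, and Nusap1, a spindle protein gene, on 2 Fto -/- arrays and 1 Fto +/+ array. With the dim genes included, the median difference was 0.11 over all 13 replication genes and 0.63 over all 21 mitosis genes. A median over tested genes leans towards genes that reach the filter through 1 genotype. Over the genes well above background on every array it was 0.15 for 10 replication genes and 0.66 for 8 mitosis genes, beside -0.03 over the 22211 probes of that kind.

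A promoter word of mitotic genes stood in most of the mitosis genes and in few of the replication genes, and a word of E2F target genes in several helicase subunit genes. RefSeq promoter windows (GRCm38.p6, 250 bases before to 50 after the gene start) were on hand for 28 of the 34 genes, 11 of replication and 17 of mitosis. The cell cycle genes homology region, a word bound through the DREAM and B-Myb complexes, was searched as TTTGAA or TTCGAA on both strands. It stood in 13 of 17 mitosis genes (76.5%), 2 of 11 replication genes (18.2%) and 19.2% of all 32851 windows. The E2F word, searched as TTTCCCGC, TTTGGCGC, TTTGCCGC or TTTCGCGC on both strands, stood in 4 of 11 replication genes (Mcm3, Mcm5, Mcm6 and Mcm7), in 1 of 17 mitosis genes (Cdk1) and in 2.26% of all windows. CCAAT, on either strand, stood in 8 of 11 replication genes, 15 of 17 mitosis genes and 37.4% of all windows. A gene counted when any of its windows held the word (30 windows for the 28 genes), whereas the shares of all windows are of single windows. Mcm7 held the homology region and E2F words in only a single window. A match describes letters in a window and is not evidence of binding in the aorta.

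The windows below belong to both genes that passed the test, to a pair of helicase subunit genes with E2F words, and to a pair of mitosis genes with homology region words. They read 5′ to 3′ on the strand of the gene, and capitals mark the matches to both kinds of word. Ccne1 lies at chr7:38107441-38107740 on the minus strand and Psrc1 at chr3:108383554-108383853 on the plus strand, the first of 2 windows of that gene. Mcm5 lies at chr8:75109259-75109558 (plus), Mcm6 at chr1:128359656-128359955 (minus), Mki67 at chr7:135716330-135716629 (minus) and Plk1 at chr7:122159185-122159484 (plus).
Ccne1: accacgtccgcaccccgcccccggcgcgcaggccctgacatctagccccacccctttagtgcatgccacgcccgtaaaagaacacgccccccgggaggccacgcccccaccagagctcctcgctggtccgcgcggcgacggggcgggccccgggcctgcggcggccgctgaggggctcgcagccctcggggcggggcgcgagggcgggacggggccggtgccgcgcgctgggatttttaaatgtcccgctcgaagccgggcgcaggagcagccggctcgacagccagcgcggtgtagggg
Psrc1: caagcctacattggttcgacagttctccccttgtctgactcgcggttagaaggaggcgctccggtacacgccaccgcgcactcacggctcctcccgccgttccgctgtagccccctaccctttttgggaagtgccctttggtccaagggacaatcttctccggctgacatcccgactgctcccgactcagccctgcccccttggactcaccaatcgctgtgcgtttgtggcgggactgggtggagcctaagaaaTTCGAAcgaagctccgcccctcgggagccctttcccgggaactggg
Mcm5: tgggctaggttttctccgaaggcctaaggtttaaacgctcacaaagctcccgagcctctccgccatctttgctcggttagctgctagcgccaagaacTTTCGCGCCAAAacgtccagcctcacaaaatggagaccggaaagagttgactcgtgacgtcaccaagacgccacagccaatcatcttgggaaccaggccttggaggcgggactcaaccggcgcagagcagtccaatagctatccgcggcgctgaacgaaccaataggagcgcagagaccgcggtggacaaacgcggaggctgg
Mcm6: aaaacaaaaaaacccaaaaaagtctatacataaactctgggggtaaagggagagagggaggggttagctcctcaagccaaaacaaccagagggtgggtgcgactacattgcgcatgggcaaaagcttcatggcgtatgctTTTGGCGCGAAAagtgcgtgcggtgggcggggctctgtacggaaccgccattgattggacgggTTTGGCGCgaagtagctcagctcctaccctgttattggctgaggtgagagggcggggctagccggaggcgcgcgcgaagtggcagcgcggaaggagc
Mki67: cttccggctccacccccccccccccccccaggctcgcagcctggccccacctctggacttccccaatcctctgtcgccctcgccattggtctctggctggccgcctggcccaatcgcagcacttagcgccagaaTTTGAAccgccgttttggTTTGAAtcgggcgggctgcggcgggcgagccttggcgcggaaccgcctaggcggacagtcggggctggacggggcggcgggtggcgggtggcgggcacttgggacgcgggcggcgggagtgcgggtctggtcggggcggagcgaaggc
Plk1: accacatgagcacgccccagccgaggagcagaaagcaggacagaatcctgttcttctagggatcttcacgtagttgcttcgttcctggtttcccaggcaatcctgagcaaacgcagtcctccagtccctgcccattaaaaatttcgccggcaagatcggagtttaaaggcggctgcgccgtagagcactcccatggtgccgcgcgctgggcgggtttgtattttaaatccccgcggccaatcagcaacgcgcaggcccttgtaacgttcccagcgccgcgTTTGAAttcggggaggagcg
Ccne1 had none of the searched words in this window. In Psrc1 the word TTCGAA, which reads the same on both strands, began at position 5, counted from 1 at the gene start. In Plk1 TTTGAA began at position 31, and in Mki67 it stood at -116 and -98. The capitals of Mcm5 hold 2 E2F words that overlap, one on each strand, and the first run of capitals in Mcm6 does too.

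Among the replication genes, Ccne1 separated the genotypes completely, with all Fto -/- samples above all Fto +/+ samples. Its levels were -1.5, -1.43, -1.27 and -1.36 in Fto -/- replicates 1 to 4, and -2.10, -2.17, -2.71 and -2.74 in Fto +/+ replicates 1 to 4. The Fto -/- samples lay within 0.23 of each other, and the Fto +/+ samples fell into a pair near -2.1 and a pair near -2.7. The means were -1.39 ± 0.10 in Fto -/- and -2.43 ± 0.34 in Fto +/+ (SD, n = 4 each), a log2 difference of 1.04 ± 0.17 (SE, limma with Benjamini-Hochberg adjusted p = 0.0272). All 4 Fto -/- arrays and 3 Fto +/+ arrays measured it above background, and a second Ccne1 probe stayed dim on all 8. Of the 12 replication genes, Ccne1 was the one whose genotypes did not overlap, where 4.74% of all tested probes had no overlap with Fto -/- higher and 7.35% with Fto -/- lower.

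The call on Ccne1 depended on the processing. With slide row as a block the difference was 0.94 (limma adjusted p = 0.129), 0.70 within row 1 and 1.18 within row 2, and the call was also lost without Fto -/- replicate 1, 2, 3 or 4 or Fto +/+ replicate 3 in turn (0.95 to 1.08, adjusted p 0.054 to 0.0896). With normexp background correction it was 0.55 (adjusted p = 0.0209), and over all alternatives the adjusted p ran from 0.0150 to 0.768. Row 1 held Fto -/- replicates 1, 2 and 3 with Fto +/+ replicate 1, and row 2 the other 4 arrays.

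The helicase subunits Mcm2 to Mcm7, which open the DNA at the origins, did not pass, and their differences ran from -0.31 (Mcm6) to 0.44 (Mcm5), with adjusted p from 0.472 to 0.981. Mcm5 had levels of 0.10, -1.20, -0.52 and -0.38 in Fto -/- replicates 1 to 4, and -0.69, -0.40, -1.47 and -1.18 in Fto +/+ replicates 1 to 4. Mcm6 had levels of 3.98, 3.31, 4.22 and 4.44 in Fto -/- replicates 1 to 4, and 4.37, 3.78, 4.33 and 4.72 in Fto +/+ replicates 1 to 4. The genotypes overlapped in both genes, and Fto -/- replicate 2 was the lowest of its genotype in all 6 subunits. Mcm7 spanned the least of the tested replication genes, 0.34 over all 8 arrays, at 1.96 to 2.07 in Fto -/- and 1.73 to 2.06 in Fto +/+ aortae. In the fit with the T cell marker level as a covariate, Mcm5 and Mcm2 differed by -0.04 and -0.08, against 0.44 and 0.19 without it.

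The sliding clamp and the nucleotide enzymes gave no gene past the threshold. Pcna, the clamp that holds the polymerase on DNA, had levels of 3.31, 2.77, 2.97 and 3.00 in Fto -/- replicates 1 to 4, and 3.33, 3.29, 3.08 and 2.77 in Fto +/+ replicates 1 to 4 (difference -0.10 ± 0.16 SE, adjusted p = 0.758). Rrm2, the regulated subunit of ribonucleotide reductase, had levels of 0.32, -0.18, 0.56 and 0.37 in Fto -/- replicates 1 to 4, and -0.24, 0.12, -0.35 and -0.87 in Fto +/+ replicates 1 to 4. In Rrm2, 3 of the 4 Fto -/- samples lay above every Fto +/+ sample, replicate 2 being the exception, and the difference was 0.60 ± 0.23 (SE, adjusted p = 0.210). Its partner Rrm1 differed by -0.06 (adjusted p = 0.866). Tyms, which makes thymidylate, was measured above background on 2 arrays of each genotype, at -3.51, -3.09, -2.89 and -3.43 in Fto -/- replicates 1 to 4, and -2.92, -2.86, -3.33 and -3.28 in Fto +/+ replicates 1 to 4, with no separation of the genotypes (difference -0.13, adjusted p = 0.708).

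E2f1, the transcription factor that drives the replication wave, had levels of -0.20, -0.49, -0.19 and -0.24 in Fto -/- replicates 1 to 4, and -0.35, -0.49, -0.30 and -0.93 in Fto +/+ replicates 1 to 4. In it 3 Fto -/- samples lay above every Fto +/+ sample, and replicate 2 lay just below Fto +/+ replicate 2 (difference 0.24 ± 0.15 SE, adjusted p = 0.430). Ccne2, the other cyclin E gene, was read well above background by 0 of the 8 arrays, with readings from -6.05 to -5.65 in Fto -/- and -5.77 to -5.51 in Fto +/+ aortae, so its level is only bounded.

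**Figure D2:**
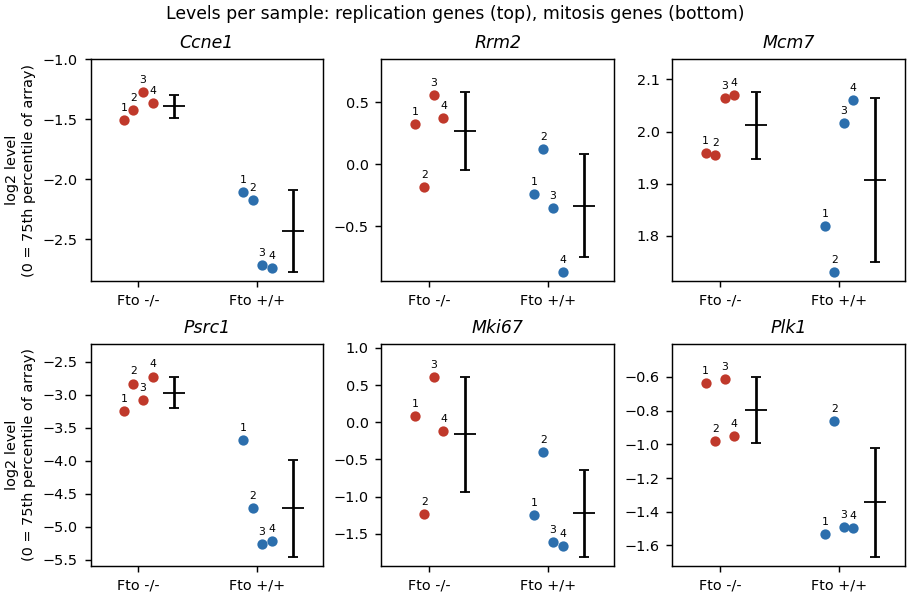
Log2 level relative to the array's 75th percentile (vertical axis) in each sample of Fto -/- (red) and Fto +/+ (blue) for 3 replication genes (top) and 3 mitosis genes (bottom), numbered by replicate, with the mean and SD beside the points; each panel has its own scale. Ccne1 and Psrc1 show no overlap, whereas in Rrm2, Mcm7, Mki67 and Plk1 the genotypes overlap. In Rrm2, Mki67 and Plk1, replicate 2 is the lowest Fto -/- and the highest Fto +/+ sample.

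Of the mitosis genes, Psrc1 was well above background on all 4 Fto -/- arrays and on 0 Fto +/+ arrays. Its levels were -3.24, -2.83, -3.08 and -2.72 in Fto -/- replicates 1 to 4, and -3.68, -4.72, -5.27 and -5.22 in Fto +/+ replicates 1 to 4. The genotypes did not overlap, as in 4.74% of all tested probes with Fto -/- higher, and Psrc1 reached the filter through its Fto -/- arrays alone. The fitted difference was 1.75 ± 0.33 (SE, limma with Benjamini-Hochberg adjusted p = 0.0444). The Fto +/+ level is only a bound. Each Fto +/+ array was set at the lowest level of any probe well above background on it, or the probe's own level where higher. Against the mean of those levels, the mean over Fto -/- samples was 1.36-fold higher, a ratio given without an error. Such a floor is not the detection limit of this probe.

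Psrc1 kept its call without 1 of the 8 arrays, Fto +/+ replicate 1 (2.10, adjusted p = 0.0106). Without each other array the difference ran from 1.57 to 1.84 (adjusted p 0.0534 to 0.114), and with slide row as a block it was 1.49 (adjusted p = 0.171). Within row 1 it was 0.63 and within row 2 2.35, each row setting a single array against 3. Normexp gave 0.42 (adjusted p = 0.0913), quantile normalisation and the deposited series table each 1.73 (0.0683 and 0.0691), and no filter 1.75 (0.119).

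The mitotic cyclins did not pass, and the kinase that they act with was not tested. Ccna2, which encodes cyclin A2, had levels of -1.84, -2.41, -1.57 and -2.16 in Fto -/- replicates 1 to 4, and -2.94, -2.33, -2.50 and -2.95 in Fto +/+ replicates 1 to 4 (difference 0.69 ± 0.21 SE, adjusted p = 0.144). In Ccna2, Fto -/- replicate 2 lay below Fto +/+ replicate 2, and the other 3 Fto -/- samples lay above every Fto +/+ sample. Ccnb1 and Ccnb2, the cyclin B genes, differed by 1.23 (adjusted p = 0.239) and 0.63 (adjusted p = 0.310). Ccnb1 was well above background on 3 Fto -/- arrays and 1 Fto +/+ array, and its other probes were so on 0 arrays. The size of its difference rests partly on readings near background, such as -5.14 in Fto +/+ replicate 4. Of the 3 Cdk1 probes, which read the mitotic kinase, none was called well above background in any sample.

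Among the mitotic kinases and the proteins that guide chromosomes, Plk1, the Polo kinase, had levels of -0.64, -0.98, -0.61 and -0.95 in Fto -/- replicates 1 to 4, and -1.53, -0.86, -1.49 and -1.5 in Fto +/+ replicates 1 to 4. Fto +/+ replicate 2 stood alone among the Fto +/+ samples, inside the range of the Fto -/- samples (difference 0.55 ± 0.17 SE, adjusted p = 0.148). Birc5, the survivin gene of the chromosomal passenger complex, had levels of 0.35, -0.42, 0.53 and -0.04 in Fto -/- replicates 1 to 4, and -0.67, -0.14, -0.72 and -1.24 in Fto +/+ replicates 1 to 4. Cenpe, a kinesin that attaches chromosomes to the spindle, had levels of -1.26, -1.97, -0.77 and -1.12 in Fto -/- replicates 1 to 4, and -2.0, -1.67, -2.42 and -2.78 in Fto +/+ replicates 1 to 4. Both genes had 3 Fto -/- samples above every Fto +/+ sample, replicate 2 being the exception, with differences of 0.80 ± 0.27 and 0.94 ± 0.30 (SE, adjusted p 0.163 and 0.150). Cdca8, the borealin gene of the same passenger complex as Birc5, differed by 0.89 (adjusted p = 0.174) and Aurka, an Aurora kinase gene, by 0.65 (adjusted p = 0.350). The dimmer probes of both passenger complex genes were read well above background by at most 2 arrays and were not tested. Their readings do not bear on whether the probes of a gene agree.

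Mki67, which encodes the Ki-67 protein that marks cycling cells, had 2 tested probes. The brighter had levels of 0.08, -1.24, 0.61 and -0.11 in Fto -/- replicates 1 to 4, and -1.25, -0.39, -1.61 and -1.66 in Fto +/+ replicates 1 to 4. Its difference was 1.06 ± 0.41 (SE, adjusted p = 0.218), and the second probe gave 0.99 (adjusted p = 0.193). Fto -/- replicate 2 lay next to the 3 low Fto +/+ samples, and Fto +/+ replicate 2 next to the 3 high Fto -/- samples. Cdc20, which activates the anaphase ubiquitin ligase, likewise had replicate 2 as its lowest Fto -/- and its highest Fto +/+ sample, at -0.36, -0.83, -0.17 and -0.34 in Fto -/- replicates 1 to 4, and -0.83, -0.58, -1.04 and -0.98 in Fto +/+ replicates 1 to 4 (difference 0.43 ± 0.16 SE, adjusted p = 0.209).

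Cenpa, the centromeric histone gene, was the tested mitosis gene with a difference below 0 (-0.21, adjusted p = 0.761), and it was highest in Fto +/+ replicate 4, where 10 of the other 13 tested mitosis genes were lowest of their genotype. Tpx2, a spindle assembly factor gene, and Kif20a, a kinesin gene of cell division, differed by 0.16 and 0.12 (adjusted p 0.870 and 0.904), with ranges of 1.24 and 1.38 among Fto -/- and 2.11 and 1.57 among Fto +/+ samples. Bub1 and Aurkb, a checkpoint and an Aurora kinase gene, were not well above background on any array, with readings of -5.62 to -4.45 and -5.71 to -5.23 in Fto -/- aortae and -5.53 to -5.26 and -5.43 to -5.11 in Fto +/+ aortae. Bub1b and Kif11, of the checkpoint and of spindle poles, were likewise dim.

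**Figure D3:**
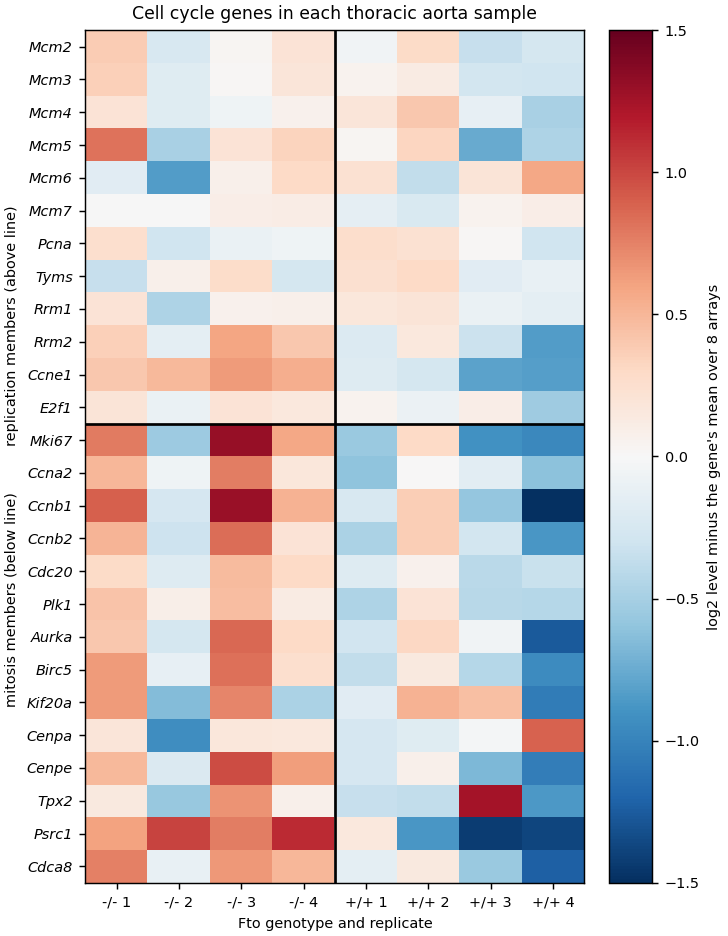
Log2 level of each tested cell cycle gene in each of the 8 samples (columns, Fto -/- left and Fto +/+ right), relative to the mean of that gene over the 8 arrays (colour, red above and blue below, clipped at 1.5). Most mitosis genes are red in Fto -/- replicate 3 and blue in Fto -/- replicate 2, whereas Ccne1 and Psrc1 are red in all 4 Fto -/- samples.

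Within a genotype most mitosis genes had their lowest and highest levels on the same arrays. Of the 14 tested mitosis genes, 13 were lowest among Fto -/- samples in replicate 2 and 11 were highest there in replicate 3, while 11 were highest among Fto +/+ samples in replicate 2 and 10 were lowest in replicate 4. Of the 12 tested replication genes, 10 were lowest among Fto -/- samples in replicate 2 and 4 highest in replicate 3, and 7 each were highest in Fto +/+ replicate 2 and lowest in Fto +/+ replicate 4. Psrc1 was the mitosis gene that was not lowest in Fto -/- replicate 2. The median range of a mitosis gene was 1.12 among Fto -/- and 1.25 among Fto +/+ samples, and that of a replication gene was 0.58 and 0.63. The share of all tested probes with the same order was not counted, so a shift of whole arrays cannot be told apart here. The limma array weight, lower where an array varies more, was 0.49 for Fto -/- replicate 2. It was 0.73 for Fto +/+ replicate 2, 0.38 for Fto +/+ replicate 4 and 1.15 to 1.82 for the others, with Fto -/- replicate 3 at 1.32.

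The level of a list on an array was taken as the mean over its tested genes, each centred over the 8 arrays. Mitosis genes had levels of 0.52, -0.22, 0.77 and 0.32 on Fto -/- replicates 1 to 4, and -0.30, 0.08, -0.30 and -0.86 on Fto +/+ replicates 1 to 4. Replication genes had levels of 0.22, -0.20, 0.17 and 0.17 on Fto -/- replicates 1 to 4, and 0.05, 0.09, -0.21 and -0.30 on Fto +/+ replicates 1 to 4. Both overlapped between genotypes, with Fto -/- replicate 2 below Fto +/+ replicate 2. The mitosis level minus the replication level was 0.30, -0.03, 0.60 and 0.15 on Fto -/- replicates 1 to 4, and -0.35, -0.01, -0.09 and -0.56 on Fto +/+ replicates 1 to 4, so the genotypes overlapped through replicate 2 of each, both near 0.

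T cell and thymocyte markers were high on the same arrays. The T cell marker level (13 tested genes) was 1.02, -0.81, 1.42 and 0.90 on Fto -/- replicates 1 to 4, and -1.21, 1.02, -1.36 and -0.98 on Fto +/+ replicates 1 to 4. The thymocyte level (Rag1, Dntt and Cd8b1) was 1.73, -2.18, 2.49 and 1.42 on Fto -/- replicates 1 to 4, and -1.96, 2.60, -2.21 and -1.89 on Fto +/+ replicates 1 to 4. Fto +/+ replicate 2 thus had a T cell level like those of Fto -/- replicates 1 and 4, and Fto -/- replicate 2 was among the 4 low arrays. All 13 tested T cell markers differed by more than 0, with a median of 1.33, and 0 passed the threshold. Thy1 differed by 0.73 (adjusted p = 0.0936), Cd3g by 2.54 (adjusted p = 0.182), Cd3e by 0.18 (adjusted p = 0.626) and Rag1 by 1.79 (adjusted p = 0.458). Smooth muscle levels ran from -0.16 to 0.08 on Fto -/- and from -0.01 to 0.21 on Fto +/+ arrays, and adipocyte marker levels (6 of 6 well above background throughout) from -0.15 to 1.63 and from -1.91 to 0.32. Macrophage levels, with 7 or 8 of 8 markers above background on each array, ran from -0.42 to 0.85 on Fto -/- and from -1.28 to 0.37 on Fto +/+ arrays. Fibroblast levels ran from 0.03 to 0.29 on Fto -/- and from -0.63 to 0.18 on Fto +/+ arrays, lowest on Fto +/+ replicate 4. Endothelial levels ran from -0.37 to 0.15 and from -0.08 to 0.41, and erythroid levels from -0.79 to 1.14 and from -0.87 to 0.62. The B cell level, of 1 tested gene, ran from -0.81 to 1.52 and from -0.60 to -0.32. The part of any of these cell types, T cells included, in the levels of the cell cycle genes was not tested.

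**Figure D4:**
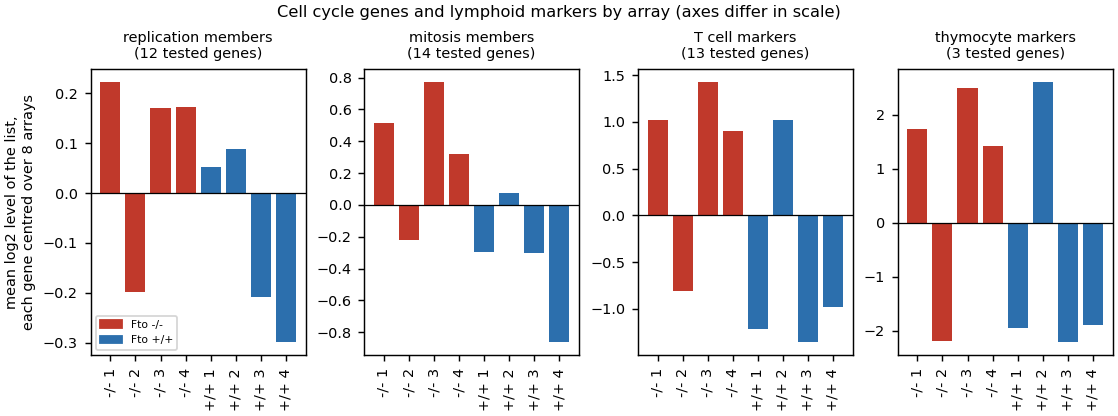
Mean log2 level of 4 gene lists on each array, each gene centred over the 8 arrays (vertical axes differ in scale), with Fto -/- arrays in red and Fto +/+ arrays in blue. T cell and thymocyte markers are above 0 on Fto -/- replicates 1, 3 and 4 and Fto +/+ replicate 2, and so are both cell cycle lists, with the replication list above 0 on Fto +/+ replicate 1 as well.

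Within genotypes, mitosis genes followed the T cell marker level more steeply than replication genes did in the fitted slopes. With genotype in the fit, the slope on the T cell level had a median of 0.34 log2 units per unit over the 14 mitosis genes (-0.05 to 0.62, 13 above 0) and 0.13 over the 12 replication genes (-0.04 to 0.37, 11 above 0). Over all tested probes the median slope was 0.01, with 52.9% above 0 and the 5th and 95th percentiles at -0.20 and 0.18. Mki67 had the steepest slope (0.62), followed by Ccnb1 (0.56) and Ccnb2 (0.41). The Ccnb1 slope rests partly on readings that were not well above background. Psrc1 (-0.05) and Mcm7 (-0.04) were the tested genes with slopes below 0, and Ccne1 had a slope of 0.10. These slopes rest on 8 arrays that form 4 high and 4 low ones, and they are descriptions with no test.

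With the T cell level added as a covariate, limma called 83 probes, 0.328% of those tested, and 0 of the 26 cell cycle genes. With slide row as a block it called 0.182% of probes and again 0 of the 26. At an unadjusted p under 0.05 in the fit with the T cell level, Ccne1 and Psrc1 were higher and 0 genes were lower, where 8.04% and 9.61% of tested probes were. Ccne1 differed by 0.92 (adjusted p = 0.112), against 1.04 without the covariate. For Psrc1 the fitted value was 1.82 (adjusted p = 0.124), set against Fto +/+ arrays that give only a bound on its level. Mki67 differed by 0.28 in that fit, Ccnb1 by 0.52, Cenpe by 0.45, Birc5 by 0.37, Ccna2 by 0.37 and Plk1 by 0.26. The median was 0.27 over mitosis genes and -0.06 over replication genes, whose sign turned. The T cell level itself differed by 1.27 between genotypes, with means of 0.63 in Fto -/- and -0.63 in Fto +/+. The parts of genotype and T cell level therefore cannot be fully told apart in this fit.

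The same contrast was taken apart by the Rag1 signal. Among the 4 arrays without it, Fto -/- replicate 2 against 3 Fto +/+ arrays, the difference was 1.09 for Ccne1 and 0.27 for Mki67, with medians of 0.33 over mitosis and -0.02 over replication genes. Among the 4 arrays with it, 3 Fto -/- arrays against Fto +/+ replicate 2, it was 0.79 for Ccne1 and 0.59 for Mki67, with medians of 0.45 and 0.10. Each of these fits had 1 array of a genotype, assumed to vary like the other 3, and called 0 of the 25292 probes (2294 and 5902 at an unadjusted p under 0.05). The second of them was chosen after seeing the data.

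**Figure D5:**
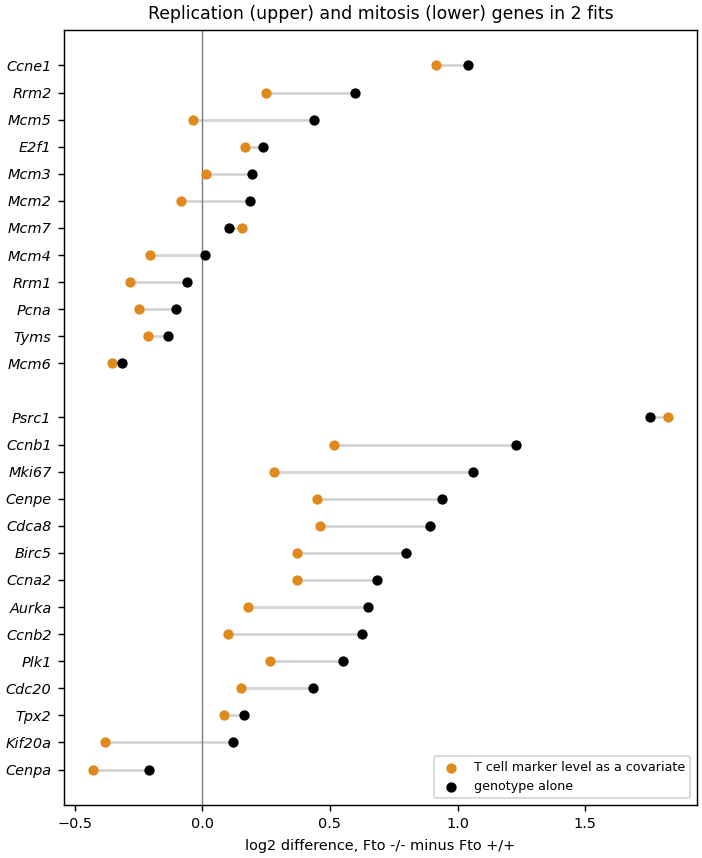
Log2 difference (Fto -/- minus Fto +/+) of each tested cell cycle gene with the T cell marker level as a covariate (orange) and with genotype alone (black). Ccne1 is at 0.92, against 1.04 with genotype alone, and Mki67 is at 0.28, against 1.06 with genotype alone.

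Other genes of the pathway, from lists outside the 34, held 0 called genes among replication and mitosis genes. Of 27 further replication genes 21 were tested, 0 passed in either direction and the median was 0.18. At an unadjusted p under 0.05, 4 were higher and 0 lower, beside 8.72% and 10.3% of all tested probes. Tk1, which encodes thymidine kinase, had the smallest p among them. Its levels were -0.83, -1.61, -1.05 and -1.29 in Fto -/- replicates 1 to 4, and -1.96, -2.01, -1.95 and -2.01 in Fto +/+ replicates 1 to 4. The genotypes did not overlap in Tk1, as in 4.74% of all tested probes with Fto -/- higher. Its difference of 0.79 ± 0.16 (SE) missed the threshold in limma (adjusted p = 0.0513). Pole, which encodes the catalytic subunit of DNA polymerase epsilon, had the next smallest p and differed by 0.42 (adjusted p = 0.228).

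Of 43 further mitosis genes 23 were tested, 0 passed and the median was 0.15. At an unadjusted p under 0.05, 6 were higher and 1 lower, beside 8.72% and 10.3% of all tested probes. Prc1, which bundles the midzone of the spindle, differed by 0.64 (adjusted p = 0.142) with no overlap, and Mybl2, the B-Myb gene, by 0.45 (adjusted p = 0.150). Pttg1, the securin gene, differed by -0.29 (adjusted p = 0.237) with all Fto -/- samples below all Fto +/+ samples. It was picked out after its values were seen. Of all tested probes, 4.74% had no overlap with Fto -/- higher and 7.35% with Fto -/- lower. The further mitosis genes thus had a median difference below that of the 14 tested in the set of 34, and both medians lay above the -0.02 of all tested probes. The further mitosis genes also did not exceed the further replication genes (0.15 against 0.18). The higher median of mitosis genes is therefore described for the set of 34 alone.

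Upstream of both waves, 0 of 17 tested G1 cyclin, E2F and pocket protein genes passed (1 higher and 1 lower at an unadjusted p under 0.05, median -0.02). Of all tested probes, 8.72% were higher and 10.3% lower at that unadjusted p. Ccnd1, the cyclin D1 gene that relays growth signals, had levels of 1.75, 1.13, 1.73 and 1.81 in Fto -/- replicates 1 to 4, and 1.33, 0.88, 0.82 and 0.02 in Fto +/+ replicates 1 to 4 (difference 0.84 ± 0.27 SE, adjusted p = 0.154). E2f4, a repressor E2F gene, differed by -0.46 (adjusted p = 0.259).

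Of 12 tested cell cycle inhibitor genes, 1 was higher and 0 lower past the threshold, beside 0.842% and 0.814% of all tested probes. At an unadjusted p under 0.05, 2 were higher and 2 lower, beside 8.72% and 10.3% of all tested probes. The median was 0.06. Cdkn2d, which encodes the kinase inhibitor p19, differed by -0.38 (adjusted p = 0.0837), with all Fto -/- samples below all Fto +/+ samples. It was picked out after its values were seen. Of all tested probes, 7.35% had no overlap with Fto -/- lower and 4.74% with Fto -/- higher. The gene past the threshold was Cdkn1c, which encodes the cyclin-dependent kinase inhibitor p57. Its levels were 3.25, 3.63, 3.62 and 3.48 in Fto -/- replicates 1 to 4, and 2.82, 2.95, 2.75 and 2.58 in Fto +/+ replicates 1 to 4. Every Fto -/- sample lay above every Fto +/+ sample, by 0.72 ± 0.12 (SE, limma with Benjamini-Hochberg adjusted p = 0.0313). The call was lost with the T cell level (0.69, adjusted p = 0.117) or slide row (0.70, adjusted p = 0.142) in the fit and without Fto -/- replicate 2, 3 or 4 or Fto +/+ replicate 1 or 3 (0.68 to 0.74, adjusted p 0.0598 to 0.102), over a range of 0.0146 to 0.876 in all alternatives. Cdkn1c was not low in Fto -/- replicate 2 (3.63), as Psrc1 was not, while the other 13 tested mitosis genes were lowest there among Fto -/- samples.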

How the data were processed

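RNA of 8 thoracic aortae was read on single-dye Agilent arrays. Per the file headers, the deposited scanner output comes from version 11.0.1.1 of Agilent Feature Extraction, is annotated on mm9 and gives a background-subtracted intensity for each spot, with no normalisation across arrays. The deposited log2 series table, of unstated normalisation, served as an alternative. A single slide, scanned on 1 day, held all arrays.

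Control spots (3671 per array) and spots called outliers by the scanner software (126 to 189 per array) were left out, and the spots of each of 55681 probes were averaged. Values are log2 of the processed intensity minus log2 of the array's 75th percentile. RefSeq accessions, looked up in the GRCm38.p6 gene table, gave names to 28331 probes (50.9%). The lmFit and eBayes functions of limma 3.58.1 (R 4.3.3) compared genotypes in the 25292 tested probes, and p-values were adjusted by Benjamini-Hochberg over all of them. The number of arrays limits the precision.

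The members and the lists were chosen with earlier results of these data known. Values per sample are given for members past the threshold, and within replication and mitosis genes for the 4 of smallest p, the 2 of highest and the 2 of lowest mean level. Of other cell cycle lists, members past the threshold or else the 2 of smallest p are named. Marker lists other than T cells are given by their levels alone. Mki67, Mcm7, Pttg1 and Cdkn2d were added after their values were seen. Normexp correction (offset 50) used the median signal of each spot, the files holding no mean signal column. Other alternatives were quantile normalisation, the percentile over detected probes, filters, the mean over the probes of a gene, array weights, slide row and column, the replicate number, each array left out, and the T cell level.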

Additional observations from a re-analysis of the deposited data

Results flagged for a closer look

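Within each genotype, the highest and lowest of the 4 samples were compared with the others by Dixon's ratio, the gap to the nearest sample over the whole range, for the 26 tested cell cycle genes. Of 52 such groups, 3 passed the 95% critical value for 4 samples, and chance alone gives about 1 in 20 groups. E2f1 in Fto -/- replicate 2 had a ratio of 0.852, at a level of -0.49 with the other Fto -/- samples between -0.24 and -0.19. Cenpa in Fto -/- replicate 2 had a ratio of 0.987, at -3.15 with the other Fto -/- samples between -2.06 and -2.04. Plk1 in Fto +/+ replicate 2 had a ratio of 0.936, at -0.86 with the other Fto +/+ samples between -1.53 and -1.49. All 3 samples were replicate 2 of their genotype. Fto -/- replicate 2 had a T cell marker level of -0.81 while the other Fto -/- samples were at 0.90 to 1.42, and Fto +/+ replicate 2 had 1.02 while the other Fto +/+ samples were at -1.36 to -0.98. The part of those markers in the 3 values was not tested.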

How the results depend on the processing

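The median difference of mitosis genes stayed above 0 in all 24 alternatives (0.27 to 0.86), and that of replication genes in 22, the exceptions being -0.060 with T cell level as covariate and -0.017 without the arrays with Rag1. The count of cell cycle genes past the threshold was 2, and it was 1 with normexp, quantile normalisation or the deposited series table and 3 with array weights, which added Cenpe. It was 0 with no filter, with slide row as a block and with the T cell level, and 0 to 2 with 1 array left out. The filter at all 8 arrays gave 0 as well, but it removed both called genes before the test. Ccne1 was well above background on 7 arrays and Psrc1 on 4, so that 0 does not bear on them. The count of probes past the threshold was 419, and it was 96 with no filter, 1624 with array weights, 46 with slide row as a block, 0 within row 1, 1 within row 2, 83 with the T cell level, 0 without and 0 within the Rag1 arrays, and 101 to 886 with 1 array left out. Fto missed the threshold within row 1 (-3.02), within row 2 (-3.33), without the Rag1 arrays (-2.66) and within them (-3.47), fits of 1 array against 3. With the replicate number as a block, limma called 132 probes and 0 cell cycle genes. Same-numbered samples correlated at 0.15, -0.02, -0.02 and -0.04 in their deviations for replicates 1 to 4. The same number was the best match for replicate 1 alone. With so few samples, these values cannot tell whether the numbers pair the samples.

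Signs turned in 11 genes, none of which passed in any alternative. With normexp Mcm4 was at -0.014 and Tyms at 0.066. With array weights Mcm4 was at -0.0045, Rrm1 at 0.0032, Kif20a at -0.0027, Cenpa at 0.11 and Tpx2 at -0.031. With slide row as a block Mcm4 was at -0.029, Kif20a at -0.023 and Cenpa at 0.0016, within row 1 Mcm4 at -0.19 and Cenpa at 0.064, and within row 2 Mcm6 at 0.16, Rrm1 at 0.088 and Kif20a at -0.45. With the T cell level Mcm2 was at -0.085, Mcm4 at -0.21, Mcm5 at -0.036 and Kif20a at -0.38. Without the Rag1 arrays Mcm2 was at -0.023, Mcm3 at -0.0073, Mcm4 at -0.044, Mcm5 at -0.084, Mcm7 at -0.0104, Tyms at 0.085, Kif20a at -0.397 and Tpx2 at -0.59, and within them Mcm2 at -0.0803, Mcm4 at -0.34, Mcm6 at 0.44, Kif20a at -0.22 and Cenpa at 0.35. With 1 array left out Mcm4 ran from -0.15 to 0.15, Rrm1 from -0.14 to 0.0836, Kif20a from -0.21 to 0.36, Cenpa from -0.33 to 0.0669 and Tpx2 from -0.0974 to 0.61.

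The cause of these changes was not tested. The 8 arrays limit precision, and 6 of the 34 genes were not well above background on any array.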
